A study of Caenorhabditis elegans with 14 samples.

Results

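The 88 loci described here were the protein-coding genes and 1 pseudogene whose antisense 26G siRNAs, of the class bound by ALG-3 and ALG-4, were most abundant in wild-type C. elegans adults. They were chosen from the 1399 loci of that class, among 23869 small RNA features, by a mean of at least 0.5 rpm over the 7 wild-type libraries. Of the 1399 loci, 1290 were above 0 in at least 1 wild-type library. The deposited rpm values are read numbers scaled to the size of each library. Small RNAs were sequenced from whole gravid hermaphrodites of the strain TAM93, which carries pash-1(ram33) on chromosome I, and of the wild-type strain N2. Mutants and wild-type had 3 libraries each after growth from L1 larvae for 72 h at 20 °C and 4 libraries each after 54 h at 25 °C, all on OP50 bacteria. The ram33 allele is a single missense line from a mutagenesis screen, replacing a glycine of the WW domain of PASH-1 with arginine, and it was outcrossed to wild-type.

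PASH-1 is the worm homologue of DGCR8, the RNA-binding partner of Drosha in the Microprocessor, which cuts primary miRNA transcripts into hairpins. The 26G siRNAs do not come from such hairpins: the RNA-dependent RNA polymerase RRF-3 copies mRNAs, and Dicer with its partners cuts the copies into siRNAs that begin with G. A branch bound by ALG-3 and ALG-4 is made in the germline during spermatogenesis, is antisense to mRNAs of the developing sperm and is needed for fertility at elevated temperature. Another branch, bound by ERGO-1, is made in oocytes and embryos. Hermaphrodites make sperm as larvae and oocytes as adults, so the ALG-3/4 branch is low in adults, and secondary 22G siRNAs are made downstream of both branches.

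Because the loci were selected on their wild-type rpm, the wild-type levels are a description and not a result. Wild-type means ran between 0.503 and 34.8 rpm with a median of 0.801 rpm, and 25 loci were above 1 rpm. The 3 loci just inside the limit were F10G7.12 at 0.503 rpm, F09C12.8 at 0.504 rpm and H08M01.1 at 0.507 rpm. The 3 just outside were sams-4 at 0.493 rpm, C14A4.13 at 0.491 rpm and K06A5.3 at 0.490 rpm. The smallest step between low values put 1 read at 0.0427 to 0.061 rpm, a depth of 16400000 to 23400000 reads, so the limit stood for about 8 to 12 reads per library. Most of the 88 loci therefore rested on few reads in wild-type, and the limit divided a continuous range. Selection on wild-type rpm also picks loci whose wild-type values happened to be high, which works towards lower values in mutants relative to wild-type.

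Of the 88 loci, 1 stood apart in wild-type. Y57G11C.36 had 31.9, 32.1 and 33.0 rpm in wild-type at 20 °C and 35.1 to 38.6 rpm in wild-type at 25 °C. Alone it held 18.7% to 27.6% of the rpm of all 88 loci in the wild-type libraries at 20 °C and 23.9% to 31.7% in those at 25 °C. The next loci by wild-type mean were C38C10.3 with 7.01 rpm, spch-1 with 5.66 rpm, ZK1010.5 with 5.59 rpm, F57B9.8 with 3.19 rpm and spch-3 with 3.03 rpm. Per kilobase of annotated exon Y57G11C.36 had 17.0 rpm per kb in wild-type, spch-1 had 8.39, C38C10.3 had 7.0, F10C1.3 had 4.40 and spch-3 had 4.03. On this scale F10C1.3 stood far higher in the order than by rpm, and ZK1010.5 and F57B9.8 stood lower, at 2.34 and 2.23 rpm per kb. At the other end ncr-2, a homologue of the human Niemann-Pick C1 protein and the longest of these genes, had 0.141 rpm per kb.

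The summed rpm of the 88 loci did not overlap between the strains at either temperature, being higher in mutants, and the gap was much wider at 25 °C. At 20 °C the sums were 255, 251 and 228 rpm in mutants, against 170, 116 and 120.0 rpm in wild-type, a ratio of means of 1.81. At 25 °C the sums were 849, 1086, 1048 and 923 rpm in mutants, against 153, 132, 123 and 111 rpm in wild-type, a ratio of 7.53. The means were 245 ± 14.4 rpm in mutants and 135 ± 30.2 rpm in wild-type at 20 °C (SD, n = 3 each), and 976 ± 110 rpm in mutants and 129.6 ± 17.7 rpm in wild-type at 25 °C (SD, n = 4 each). The 2 temperatures were normalized in separate tables, so levels at 20 °C and 25 °C are set side by side only. Without Y57G11C.36 the ratios were 1.83 and 9.98. Sums over the loci carry no p-value here because the loci were chosen with results known.

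**Figure D1:**
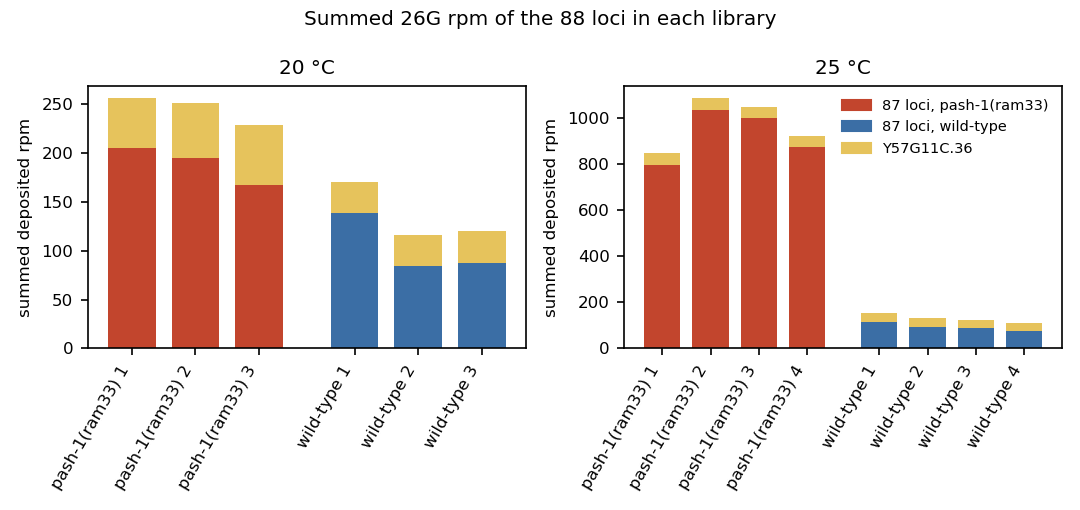
Summed deposited 26G rpm of the 88 loci (y axis) in each library (x axis) at 20 °C and at 25 °C, with the rpm of Y57G11C.36 in yellow on top of the other 87 loci. Mutant sums at 25 °C were 849 to 1086 rpm and wild-type sums 111 to 153 rpm, while the rpm of Y57G11C.36 differed far less.

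Single loci were compared with limma on log2(rpm + 0.1) after median-of-ratios scaling within each table. Benjamini-Hochberg adjustment took in every feature of the table that averaged 0.5 rpm or more. The pseudocount of 0.1 rpm makes fold changes of the lowest loci too small. At 25 °C, 87 of the 88 loci passed an adjusted p-value of 0.05 as higher in mutants and 0 as lower, with 1 lower at an unadjusted p-value under 0.05. Over all 9287 features tested, 31.9% were called higher and 33.3% lower. The 87 loci also had no overlap between the scaled mutant and wild-type values, with mutants higher, which was so for 26.8% of all features. Another 2634 of the 9287 features had no overlap with mutants lower. The median log2 fold change of the 88 loci was 2.64, or 6.24-fold, against 0.06 over all features. Of the 88 loci 81 were at least 4-fold and 13 at least 8-fold higher in mutants.

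Of the 88 loci, 12 had a wild-type mean under 0.5 rpm at 25 °C and so could pass the low-value filter only through the mutant libraries. Among the 76 with a wild-type mean of at least 0.5 rpm there, 75 were higher and 0 lower, with a median log2 fold change of 2.64. Among the other loci of the class, 489 of the 490 tested were higher at 25 °C, with a median of 2.55, but they were below the limit in wild-type and nearly all passed the filter only through the mutant libraries. The number of loci of the class at or above 0.5 rpm was 845 in mutants and 80 in wild-type at 25 °C. At 20 °C it was 240 in mutants and 107 in wild-type. At 25 °C the 88 loci held 41.2% to 42.1% of the class's rpm in mutant libraries, against 48.4% to 53.0% in wild-type libraries.

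C38C10.3, on chromosome III, had the highest 26G level of all members in mutants at 25 °C. It had 72.4, 100.2, 86.5 and 77.1 rpm in mutants, against 9.78, 8.77, 6.26 and 4.76 rpm in wild-type. Every mutant library was far above every wild-type library, and the log2 fold change was 2.95 ± 0.14 (SE, n = 4, limma adjusted p = 1.76e-14). ZK1010.5 followed with 44.8, 61.8, 63.3 and 52.9 rpm in mutants, against 5.53, 5.11, 4.92 and 3.61 rpm in wild-type. F57B9.8 had 35.4, 49.4, 42.3 and 32.6 rpm in mutants, against 4.11, 3.12, 2.96 and 2.89 rpm in wild-type. These 2 loci were higher by 2.93 ± 0.12 and 2.98 ± 0.13 on the log2 scale (SE). The first mutant library was the lowest of its group at C38C10.3 and ZK1010.5, as it was at 52 of the 88 loci.

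**Figure D2:**
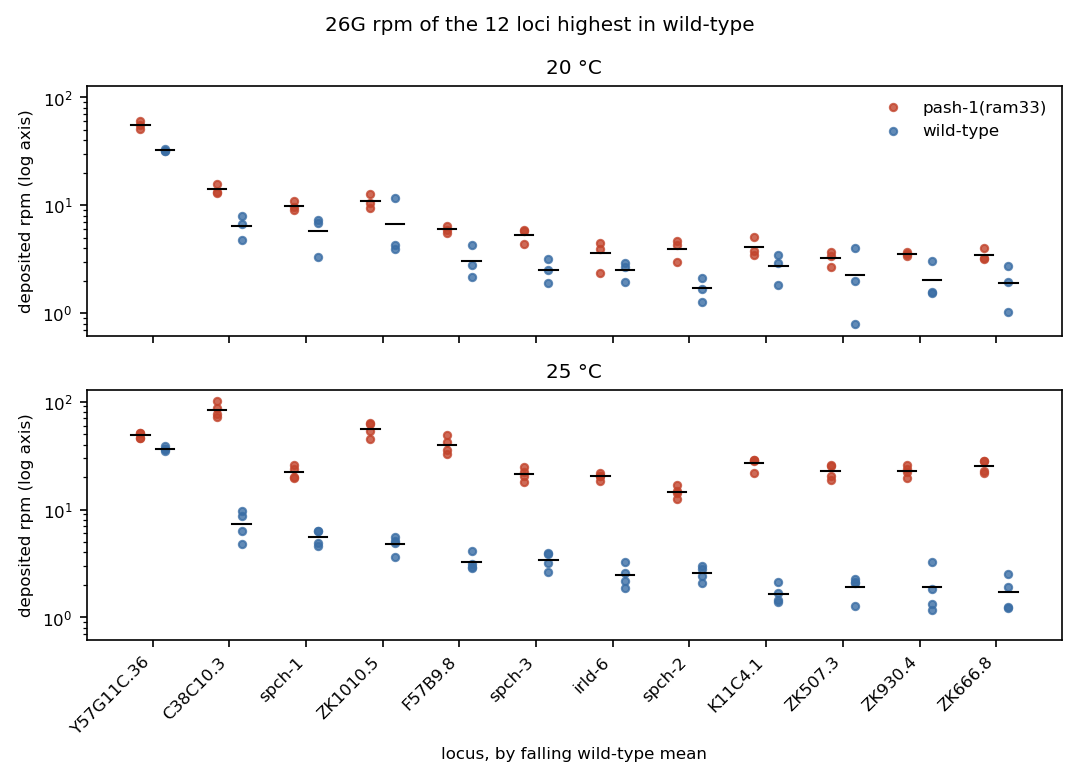
Deposited 26G rpm on a log axis (y axis) of the 12 loci with the highest wild-type means (x axis), with 1 point per library and black bars for means, mutants left of wild-type, at 20 °C (top) and 25 °C (bottom). At 25 °C the groups were far apart at 11 loci, with C38C10.3 at 84.1 rpm in mutants and 7.39 rpm in wild-type, and close at Y57G11C.36.

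The 6 largest increases at 25 °C were at H08M01.1, C35E7.9, F07F6.1, C15H11.13, Y39E4B.13 and K11C4.1. H08M01.1 had 6.74, 9.40, 10.0 and 8.08 rpm in mutants, against 0.43, 0.59, 0.44 and 0.09 rpm in wild-type. Even the lowest mutant library was far above the highest wild-type library, with a log2 fold change of 3.77 ± 0.30 (SE, n = 4). It is 1 of the 12 loci that passed the low-value filter at 25 °C only through the mutant libraries, so its direction there was fixed by the filter. K11C4.1 had 21.9, 28.3, 28.7 and 28.8 rpm in mutants, against 2.13, 1.67, 1.39 and 1.45 rpm in wild-type, a log2 fold change of 3.38 ± 0.15 (SE). The log2 fold changes of the other 4 lay between 3.47 and 3.52. None of these genes has a given name beyond its sequence name in the annotation used.

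The spch genes encode small basic proteins of sperm chromatin, and their 26G siRNAs changed less than those of most members at 25 °C. spch-1 had 20.2, 25.97, 23.9 and 19.5 rpm in mutants, against 6.34, 6.32, 4.64 and 4.92 rpm in wild-type. spch-3 had 18.0, 24.9, 22.4 and 20.3 rpm in mutants, against 3.84, 3.94, 3.18 and 2.66 rpm in wild-type. spch-2 had 12.6, 16.8, 14.9 and 14.3 rpm in mutants, against 2.99, 2.81, 2.44 and 2.07 rpm in wild-type. The groups did not overlap at any of the 3 genes, and all 3 were called higher. Their log2 fold changes were 1.41 ± 0.12, 2.04 ± 0.13 and 1.89 ± 0.15 (SE, n = 4), against a median of 2.64 over the 88 loci, and spch-1 had the smallest increase of the 87 called. The 3 genes belong to 1 family and their sequences were not compared here. Reads could be shared between them, so their separate values are uncertain.

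Y57G11C.36 was the exception at 25 °C. It lies on the minus strand of chromosome IV (WBcel235, chrIV:14771415-14773781) with 2043 bases of exon in 5 blocks. In deposited rpm it had 51.4, 51.6, 45.6 and 46.2 rpm in mutants, against 36.6, 38.6, 36.2 and 35.1 rpm in wild-type at 25 °C. At 20 °C it had 50.7, 56.1 and 61.0 rpm in mutants, against 31.9, 32.1 and 33.0 rpm in wild-type. After scaling, the log2 fold change was -0.18 ± 0.08 at 25 °C (SE, limma adjusted p = 0.0567) and 0.42 ± 0.12 at 20 °C (SE, adjusted p = 0.0271). The sign at 25 °C depended on the scaling: it was 0.41 in rpm as deposited, 0.70 when CSR-class 22G siRNAs set the size factors and -0.54 with scaling to the piRNA total. The call at 20 °C was lost when any of the 3 mutant libraries or the second wild-type library was left out, with adjusted p-values of 0.0753 to 0.205.

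The values of Y57G11C.36 lay close to those of the ERGO-class 26G siRNAs, although the files list it in the ALG class. The 49 ERGO-class loci tested had a median log2 fold change of 0.46 at 20 °C and -0.22 at 25 °C, where 1 was called higher and 17 lower. Among the 87 other members the smallest change at 25 °C was 1.41. The genotype difference of Y57G11C.36 was smaller at 25 °C than at 20 °C, by -0.60 ± 0.14 on the log2 scale (SE, limma adjusted p = 9.58e-04), and the ERGO-class median of this difference was -0.55. At 25 °C it held 4.35% to 6.06% of the members' rpm in mutants, against 23.9% to 31.7% in wild-type. The gene overlaps 2 coding genes on its own strand, degl-1 by 11 bases and Y57G11C.51 by 190 bases, so reads from those stretches cannot be placed in either gene.

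At 20 °C the same loci changed little. Of the 87 tested, 8 were higher in mutants, where 1.74% of all 9083 features tested were called higher. None was lower by limma, where 3.12% of all features were called lower. At an unadjusted p-value under 0.05, 29 of the loci were higher and 0 lower by limma. Of all 9083 features, 737 were higher and 782 lower at that unadjusted p-value. Without overlap between scaled mutant and wild-type values were 23 loci, all higher in mutants. Of all 9083 features, 9.9% were without overlap and higher in mutants, and another 1021 were without overlap and lower. The median log2 fold change of the loci was 0.48, against 0.01 over all features, and 75 of the 87 values were above 0. Among the other loci of the class, 7 of 99 were higher and 0 lower, with a median of 0.73. Only 27 of the other loci had a wild-type mean of at least 0.5 rpm at 20 °C. Most of the 99 thus passed the filter only through the mutant libraries, which favours higher values, so their median cannot be set against that of the members. T23F6.3 was the only member not tested at 20 °C, with 0.50, 0.58 and 0.26 rpm in mutants, against 0.73, 0.09 and 0.64 rpm in wild-type. Including it, 8 loci had a wild-type mean under 0.5 rpm at 20 °C, and of the 80 others 6 were higher and 0 lower.

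lin-61, whose product binds methylated histone H3 through malignant brain tumour repeats, had the largest increase at 20 °C. It had 7.21, 4.62 and 5.30 rpm in mutants, against 1.95, 0.90 and 1.67 rpm in wild-type. The groups were well apart, with a log2 fold change of 1.54 ± 0.27 (SE, n = 3, limma adjusted p = 7.25e-05). C01G10.14 had 1.91, 1.46 and 1.52 rpm in mutants, against 0.37, 0.23 and 0.59 rpm in wild-type. Y38C1AA.7 had 3.13, 3.87 and 2.89 rpm in mutants, against 1.04, 0.72 and 0.98 rpm in wild-type. Their log2 fold changes were 1.54 ± 0.40 and 1.41 ± 0.29 (SE). C25D7.1, named melo-3 in the annotation, F17E9.5, B0025.5 and C38C10.3 were also called, with log2 fold changes of 1.41, 1.15, 0.93 and 0.76, and Y57G11C.36 completed the 8. Of the 8, 7 were also called at 25 °C. Y38C1AA.7 kept its call at 20 °C under every alternative run, and lin-61 lost it only without limma's trend and robust options (adjusted p = 0.0843). The others were less stable: of 15 alternatives, or 14 for C25D7.1, C25D7.1 lost its call under 7, B0025.5 under 6, Y57G11C.36 under 6, F17E9.5 under 4, C01G10.14 under 3 and C38C10.3 under 2. C01G10.14 and C25D7.1 had wild-type means of 0.397 and 0.42 rpm at 20 °C and passed the filter there only through the mutant libraries.

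The count at 20 °C turned on single libraries. It was 20 without the first wild-type library, 2 without the first mutant library, 4 without the second mutant library and 3 without the second wild-type library. The first wild-type library had the highest rpm of its group at 64 of the 88 loci, and a sum of 170 rpm beside 116 and 120.0 rpm. It was also the highest of the wild-type libraries for the summed other loci of the class, with 198 rpm beside 130.0 and 136 rpm. In rpm as deposited 35 loci were called higher and 0 lower, and without limma's trend and robust options 4 were. The count of 87 higher loci at 25 °C was the same whichever library was left out.

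**Figure D3:**
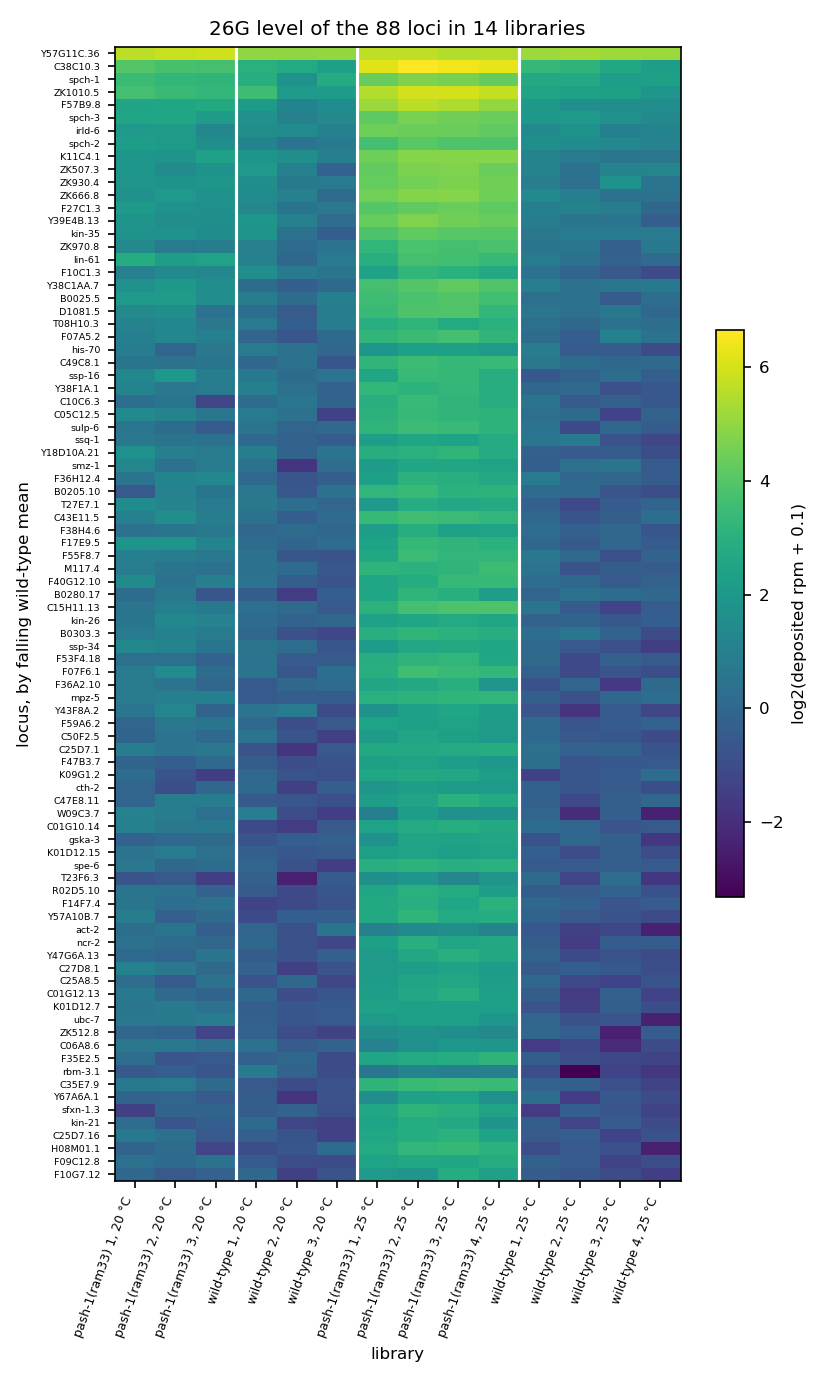
Level of each of the 88 loci (rows, by falling wild-type mean) in each of the 14 libraries (columns, mutants left of wild-type at each temperature), as log2(deposited rpm + 0.1) in colour. At 25 °C the 4 mutant libraries were brighter than the 4 wild-type libraries at all 88 rows, with a small gap at Y57G11C.36 in the first row, and the first wild-type library at 20 °C was the brightest of its group at 64 rows.

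The genotype difference itself was larger at 25 °C than at 20 °C at most loci. In a fit over all 14 libraries, 82 of the 87 loci tested had a more positive difference at 25 °C and 1, Y57G11C.36, a more negative one, where 13% of 8450 features had a more positive and 17% a more negative difference. The 12 loci with a wild-type mean under 0.5 rpm at 25 °C are among the 87. They passed the filter there only through the mutant libraries, which favours a more positive difference. The median of this difference of log2 fold changes was 2.14 over the loci and -0.04 over all features. It was largest at H08M01.1 (4.00 ± 0.53, SE), followed by sfxn-1.3 (3.64 ± 0.49), F35E2.5 (3.47 ± 0.47), C10C6.3 (3.44 ± 0.45) and sulp-6 (3.43 ± 0.43). H08M01.1, sfxn-1.3 and F35E2.5 had wild-type means of only 0.388, 0.435 and 0.43 rpm at 25 °C and passed the filter there through the mutant libraries, while C10C6.3 and sulp-6 were above it in wild-type. sfxn-1.3 encodes a sideroflexin, a family of mitochondrial carriers, and sulp-6 an anion transporter of the sulphate permease family. At 20 °C these 5 loci had log2 fold changes of -0.68 to -0.21, none past the threshold.

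C10C6.3 shows the contrast between the temperatures. It had 1.13, 1.38 and 0.32 rpm in mutants, against 1.04, 1.40 and 0.83 rpm in wild-type at 20 °C. At 25 °C it had 7.73, 10.4, 9.05 and 7.23 rpm in mutants, against 1.32, 0.63, 0.74 and 0.55 rpm in wild-type. The groups overlapped at 20 °C and were far apart at 25 °C. Over the 87 loci the changes at the 2 temperatures were unrelated in size, with Pearson's r of -0.06 and Spearman's rho of -0.07, given as a description over loci that share their libraries. The 4 loci without a call in this comparison were smz-1, W09C3.7, C01G10.14 and C25D7.1.

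**Figure D4:**
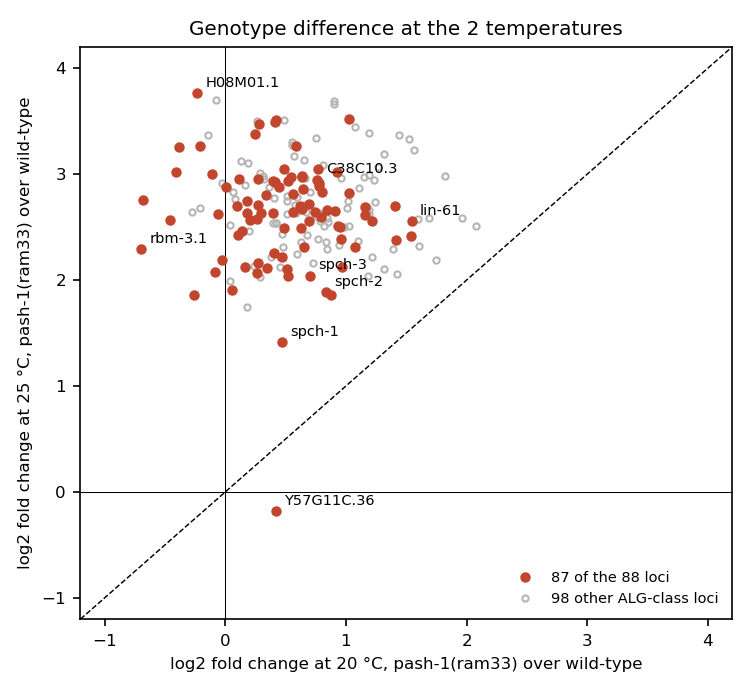
Log2 fold change of mutants over wild-type at 20 °C (x axis) and at 25 °C (y axis) for 87 of the 88 loci (filled) and 98 other loci of the class (open), with equal change on the dashed line. All loci but Y57G11C.36 lie above the line, between 1.41 and 3.77 on the y axis for the members. Most of the open loci passed the low-value filter only through the mutant libraries.

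The order of the loci by level was largely kept between groups. Spearman's rho over the 88 loci was 0.76 between mutant and wild-type means at 25 °C and 0.75 at 20 °C, with 0.72 between the temperatures in mutants and 0.63 in wild-type. These are descriptions over loci, and Y57G11C.36 and the other abundant loci are in all of them.

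Of the 60 loci of the class in 4 lists of sperm genes 3 were members, or 5%, against 6.29% of the whole class. The lists do not hold every sperm gene, and the spch genes and smz-1 are outside them. None of the 22 major sperm protein loci of the class, genes for the main cytoskeletal protein of worm sperm, was a member, and the highest wild-type mean among them was 0.271 rpm. Of the 20 loci of the small sperm-specific families ssp, sss and nspd, 2 were members, ssp-16 and ssp-34. Of 16 spe and fer genes, named for defective sperm, 1 was a member: spe-6, which encodes a casein kinase I-like protein needed to assemble major sperm protein in spermatocytes. There were 1 of 2 histone loci, his-70, an H3 variant gene, 1 of 6 actin and tubulin loci, act-2, and none of 2 sperm phosphatase genes or 4 ribosomal protein genes. Only 23 of the 88 genes had a name of their own in the files. Among the named were the kinase genes kin-21, kin-26, kin-35 and gska-3, pointed out after their values were seen.

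At 25 °C nearly all tested loci of these lists passed the filter only through the mutant libraries, so their direction was fixed and is given as a description. The tested loci were 7 major sperm protein loci, none with a wild-type mean of 0.5 rpm, 10 of the small sperm-specific families, 2 with such a mean, and 7 spe and fer loci, 1 with such a mean. All were higher in mutants, where 31.9% of all features were called higher. Their median log2 fold changes were 2.04, 2.52 and 2.92, against 0.06 over all features. At 20 °C 1, 4 and 1 of these loci were tested, and none was called in either direction. spe-6 had 7.73, 8.66, 7.53 and 8.19 rpm in mutants, against 0.61, 0.63, 0.70 and 0.60 rpm in wild-type at 25 °C, a log2 fold change of 2.92 ± 0.20 (SE). ssp-16 and ssp-34 were higher by 2.70 ± 0.22 and 2.67 ± 0.27, act-2 by 2.19 ± 0.35 and his-70 by 1.86 ± 0.29 on the log2 scale (SE), of which act-2 was under the filter in wild-type at 25 °C.

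All 88 genes were found in the WBcel235 annotation, and their placement was not used by the rule. There were 24 on chromosome I, 13 on II, 13 on III, 21 on IV and 17 on V, and 0 on X. Of the other 1311 loci of the class 1 was on X, while 12.6% of ERGO-class genes and 13.7% of all protein-coding genes were. The median exonic length was 975 bases, against 1139 for the rest of the class and 1161 for all protein-coding genes. Of the 88, 87 were protein-coding and ZK507.3 was a pseudogene, and 6 had a single exon block. On the other strand 19 overlapped a coding gene, which matters because 26G siRNAs are counted by their antisense strand, and no member overlapped another. The deposited tables give a level per gene, so where in an mRNA the siRNAs lie was not analysed here.

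**Figure D5:**
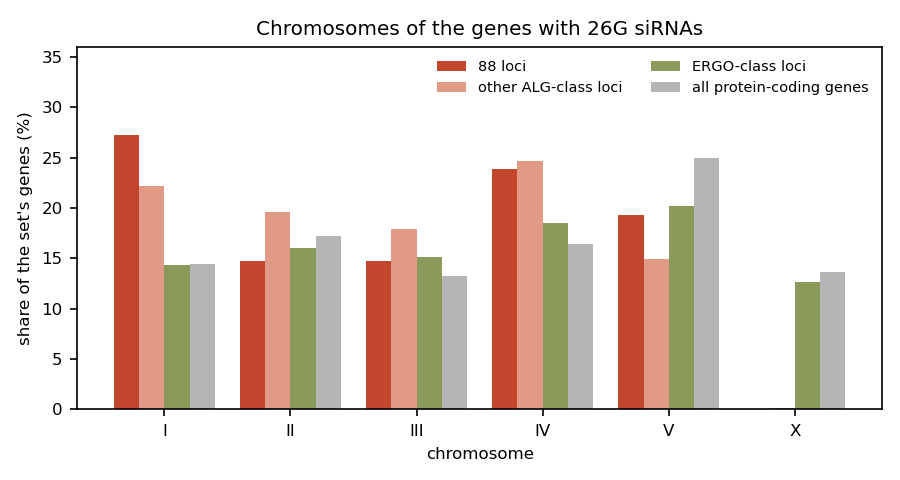
Share of genes on each chromosome (y axis, percent; x axis, chromosome) for the 88 loci, the other loci of the class, the ERGO-class loci and all protein-coding genes. The 88 loci have no gene on X, where 13.7% of protein-coding genes lie.

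For 7 of the 88 genes the tables also list secondary 22G siRNAs, a readout the rule did not use. They are CSR-class for rbm-3.1, act-2, B0303.3 (hadb-1 in the annotation), lin-61 and ubc-7, bound by the Argonaute CSR-1, and WAGO-class for Y18D10A.21 and Y39E4B.13. Of the 5 tested at 20 °C, 1, act-2, was lower in mutants and 0 were higher by limma. Over all 9083 features tested there, 3.12% were called lower and 1.74% higher. At an unadjusted p-value under 0.05, 2 of the 5 were lower and 1 higher by limma. Of all features, 782 were lower and 737 higher at that unadjusted p-value. Of the 6 tested at 25 °C, Y18D10A.21 was higher and rbm-3.1 and act-2 were lower, where 31.9% of all features were called higher and 33.3% lower. The share of lower genes was that of the background, and 83.3% of the CSR class was lower. Y18D10A.21 passed the filter only through the mutant libraries. These calls were small and turned on the scaling: in rpm as deposited 3 were higher and 0 lower at 25 °C, and 5 were lower with scaling to the piRNA total. The CSR class as a whole had a median log2 fold change of -0.84 at 25 °C and -0.15 at 20 °C.

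At 25 °C the scaled log2 fold changes of these 6 genes were -0.63 to 1.22 for 22G siRNAs, beside 2.19 to 2.94 for their 26G siRNAs. For rbm-3.1, act-2 and ubc-7 the 26G wild-type means at 25 °C were only 0.235, 0.32 and 0.478 rpm. Their 26G siRNAs passed the filter there only through the mutant libraries, so the direction of that change was fixed by the filter. rbm-3.1 had 10.2 ± 0.649 rpm of 22G siRNAs in mutants and 10.5 ± 0.611 rpm in wild-type at 25 °C (SD, n = 4), with a scaled log2 fold change of -0.63 ± 0.12 (SE). Its 26G siRNAs had 1.41, 2.19, 1.84 and 1.91 rpm in mutants, against 0.43, 0.00, 0.30 and 0.21 rpm in wild-type. lin-61 had 4.40 ± 0.921 rpm of 22G siRNAs in mutants and 2.06 ± 0.858 rpm in wild-type at 20 °C (SD, n = 3, limma adjusted p = 0.0767). At 25 °C it had 6.36 ± 0.737 rpm in mutants and 4.83 ± 0.704 rpm in wild-type (SD, n = 4). After scaling the sign at 25 °C turned, with a log2 fold change of -0.18 ± 0.16 (SE, limma adjusted p = 0.310), beside 0.76 ± 0.25 at 20 °C (SE), and neither passed the threshold. The genotype difference in its 22G siRNAs was smaller at 25 °C than at 20 °C, by -0.95 ± 0.29 (SE, limma adjusted p = 0.0126). Y18D10A.21 had 0.90, 0.88, 1.42 and 1.12 rpm of WAGO-class 22G siRNAs in mutants, against 0.38, 0.14, 0.35 and 0.21 rpm in wild-type at 25 °C, a log2 fold change of 1.22 ± 0.38 (SE, adjusted p = 0.00634). Its 26G siRNAs were higher by 2.94 ± 0.22 in the same libraries.

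Other small RNAs that mark germline and embryos moved with the genotype as well, and their part in the results above was not tested. Summed piRNAs, which are made in the germline, were 1.23 times wild-type in mutants at 20 °C and 1.94 times at 25 °C. When libraries were scaled to piRNA totals, 87 of the 88 loci were still higher at 25 °C and 1 was lower, with a median log2 fold change of 2.31, and 11 were higher at 20 °C. The embryonic miRNAs miR-35-3p to miR-41-3p, themselves Microprocessor products, summed to 63496 ± 5581 rpm in mutants and 201151 ± 9961 rpm in wild-type at 25 °C (SD, n = 4). At 20 °C these miRNAs summed to 97708 ± 6679 rpm in mutants and 179866 ± 10283 rpm in wild-type (SD, n = 3). Another embryonic miRNA, miR-42-3p, went the other way at 20 °C, with 288 ± 46.5 rpm in mutants and 129 ± 19.9 rpm in wild-type (SD, n = 3). At 25 °C miR-42-3p had 216 ± 31.5 rpm in mutants and 275 ± 25.6 rpm in wild-type (SD, n = 4). For late larvae and adults, lin-4-5p had 2109 ± 268 rpm in mutants and 1304 ± 33.9 rpm in wild-type at 25 °C, without overlap (SD, n = 4). There let-7-5p was 1.01 times wild-type and miR-1-3p, of body muscle, 1.07 times, both with overlap. These miRNAs overlapped between the strains at 20 °C. Whether the stage of the animals differed between the strains was not tested. Summed ERGO-class 26G siRNAs were 1.71 times wild-type in mutants at 20 °C and 1.25 times at 25 °C in rpm as deposited, but after scaling the class median was -0.22 on the log2 scale at 25 °C. In whole animals, more cells that make these siRNAs and more siRNA per cell cannot be told apart. The replicates are separate libraries of a strain, and p-values measure the spread between them. The scalings moved the median of all features by -0.34 to 0.82 on the log2 scale at 25 °C. A scaling moves every feature of a library alike, so the median of the loci, 2.59 above that of all features, moves with it.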

How the data were processed

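The authors used fastp for trimming, bowtie for alignment and tinyRNA for assignment, whose rules select 26G siRNAs by length, first base and antisense strand. The deposited unit was rpm, made in a separate table per temperature. In the 20 °C table the classes stood 1 line low; they were moved back and then matched for all 23869 features. Between 89.7% and 91.8% of low values were whole reads at the estimated step.

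Members, lists and tests were chosen with earlier results of these data known. Within a table, libraries were rescaled by median-of-ratios size factors, log2(rpm + 0.1) was taken, and features averaging 0.5 rpm or more were fitted with limma 3.58.1 (lmFit, eBayes with trend and robust options) in R 4.3.3. Benjamini-Hochberg adjustment covered every feature tested, and 0.05 was the threshold. Temperatures were compared by an interaction over 14 libraries. The fit was tested on simulated data. Named were the 12 loci highest in wild-type, up to 6 largest increases and decreases called per temperature without overlap, 5 largest interactions in each direction, 3 loci on each side of the limit, the 22G features of member genes and the members of fixed gene lists. T23F6.3, smz-1, W09C3.7, ncr-2, F10C1.3 and the kinase genes were named after their values were seen. Positions came from the Ensembl annotation of WBcel235, with exon blocks merged over transcripts. Tables were read with Python 3.11.15. Alternatives were other pseudocounts, filters, scalings and variance models, a replicate block and each library left out.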

Additional observations from a re-analysis of the deposited data

Results flagged for a closer look

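The 26G rpm of K11C4.1 in mutants at 25 °C was picked out because 1 of its 4 libraries, at 21.9 rpm, lay far from the others at 28.3 to 28.8 rpm. It was 1 of 84 groups of 4 libraries looked at, and chance alone picks out about 1 in 20.

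The remaining results were picked out because the genotype difference was not the same at the 2 temperatures by limma's interaction term. This held for 82 loci with a more positive difference at 25 °C. The log2 differences were 4.00 at H08M01.1, 3.64 at sfxn-1.3, 3.47 at F35E2.5, 3.44 at C10C6.3 and 3.43 at sulp-6, and each of these loci was higher in 4 of 4 mutant libraries than in any wild-type library at 25 °C. H08M01.1, sfxn-1.3 and F35E2.5 were under the low-value filter in wild-type at 25 °C and passed it through the mutant libraries. Y57G11C.36 had a difference of -0.60, which lost its call in rpm as deposited (-0.38, adjusted p = 0.0530) and changed sign when size factors were taken from the CSR-class siRNAs (0.12, adjusted p = 0.60).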

How the results depend on the processing

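Counts of loci higher in mutants at 20 °C (8) were 5 with no filter, 35 in rpm as deposited, 4 without trend and robust options and 2 to 20 with a library left out. At 25 °C the count higher (87) was 87 with any library left out. The count lower (0) was 1 with a mean of at least 1 rpm, 1 with piRNA scaling and 0 to 1 with a library left out, the locus being Y57G11C.36. Loci with a more positive difference at 25 °C (82) were 51, of 55 tested, with a mean of at least 1 rpm and 76 to 86 with a library left out. Loci with a more negative one (1) were 0 in rpm as deposited and 0 with CSR-class size factors.

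For the 22G siRNAs of member genes, the count higher at 20 °C (0) was 1 as deposited, 1 with piRNA scaling and 0 to 1 with a library left out. The count lower (1) was 0 as deposited, 0 with CSR-class factors, 0 without trend and robust options and 0 to 2 with a library left out. At 25 °C the count higher (1) was 0 with a mean of at least 1 rpm, 2 with no filter, 3 as deposited, 4 with CSR-class factors and 1 to 2 with a library left out. The count lower (2) was 0 as deposited, 5 with piRNA scaling and 0 with CSR-class factors.

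Of 1975 values of single loci under the alternatives, 1878 kept their direction and side of the threshold, 39 fell short of it, 34 newly passed it and 24 changed sign, 21 of these at 20 °C. Y57G11C.36 changed sign at 25 °C as deposited (0.41) and with CSR-class factors (0.70), and in the temperature difference with CSR-class factors (0.12). The log2 fold changes at 20 °C that changed sign were not called. As deposited they became 0.075 at H08M01.1, 0.11 at F35E2.5, 0.30 at act-2 and 0.076 at his-70. act-2 became 0.032 with piRNA scaling and 0.11 with CSR-class factors. With a library left out irld-6 ran between -0.10 and 0.38, K11C4.1 between -0.060 and 0.46, ZK507.3 between -0.20 and 0.98, Y39E4B.13 between -0.17 and 0.74, F10G7.12 between -0.17 and 0.59, H08M01.1 between -0.495 and 0.19, sfxn-1.3 between -0.63 and 0.0075, F35E2.5 between -0.55 and 0.023, act-2 between -0.39 and 0.27, and his-70 between -0.52 and 0.043. The cause was not tested.

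Same-numbered libraries did not deviate together (r -0.094 to 0.088 over all features), so the numbers pair nothing. With the replicate block 10 loci were higher at 20 °C, 87 at 25 °C and 82 had a more positive difference, and no count moved by more than 1.5 times. Loci near 0.5 rpm rest on about 8 to 12 reads per library, so small differences there were not detectable at this depth.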

Other observations

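Y57G11C.51, a coding gene that shares 190 bases of the same strand with Y57G11C.36, is listed with WAGO-class 22G siRNAs. They had 14.6 ± 1.79 rpm in mutants and 15.0 ± 0.561 rpm in wild-type at 25 °C (SD, n = 4). At 20 °C they had 24.4 ± 2.00 rpm in mutants and 23.9 ± 2.30 rpm in wild-type (SD, n = 3). After scaling, the log2 fold change was -0.64 ± 0.11 at 25 °C (SE, limma adjusted p = 9.16e-06) and -0.33 ± 0.14 at 20 °C (SE, adjusted p = 0.185). The neighbour was looked up after the values of Y57G11C.36 were seen.

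The first wild-type library at 25 °C had the highest rpm of its group at 50 of the 88 loci, and the first mutant library at 25 °C had the lowest at 52. Median rpm over the loci was 0.99 in that wild-type library, beside 0.62 to 0.685 in the other 3, and 6.17 in that mutant library, beside 7.13 to 8.54 in the other 3.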
